A study of Mus musculus with 82 samples.

Results

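Hair keratins and keratin-associated proteins are the structural proteins of the hair shaft and of the sheath that moulds it. The tables named 78 such genes among 56941 rows: 5 type I hair keratins, 6 type II hair keratins, 8 inner root sheath keratins, the companion layer keratin Krt75 and 58 keratin-associated proteins (Krtap genes). A gene was kept when it reached at least 0.5 CPM (estimated counts divided by the library total and multiplied by 1000000) in at least 4 libraries of either experiment, and 14 genes were. These were Krt32 of the type I hair keratins, Krt82 and Krt84 of the type II hair keratins, Krt25, Krt27, Krt28, Krt71 and Krt73 of the inner root sheath keratins, Krt75, and Krtap3-2, Krtap3-3, Krtap13-1, Krtap16-3 and Krtap19-2. The other 64 genes stayed at or below 0.811 CPM in every library, and 5 of them reached 0.5 CPM in any library. Krtap13-1 was kept with 4 libraries of the time course above the minimum, while Krt26, the nearest gene left out, had 2.

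A hair is built in cycles. In the growing phase matrix cells at the base of the follicle divide around the dermal papilla, and their daughters become the concentric layers of the shaft (medulla, cortex and cuticle), the inner root sheath and the companion layer next to the outer root sheath. Each layer makes its own keratin pair, and the keratin-associated proteins fill and cross-link the space between the filaments of the cortex and cuticle. In the resting phase the matrix and inner root sheath are gone and a club hair remains anchored above the stem cells of the bulge.

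RNA was measured in 82 libraries from right ear punches of female C57BL/6J Rj mice, an inbred black strain, in 14 groups. In experiment 1, a time course, ears received 5% imiquimod cream while the mice drank IDOR-1117-2520, a blocker of the chemokine receptor CCR6, or received imiquimod cream alone, or were sham-treated with vehicle, with punches labelled day 2, day 5 or day 8. In experiment 2 imiquimod was combined with IDOR-1117-2520 labelled as started on day 0, day 3 or day 5, beside imiquimod alone and sham. The cream was given daily from day 0 to day 7 in 8 applications, and the drug in the drinking water, per one protocol text shared by all samples. There were 6 libraries in a group, and 4 in the sham group of day 5. The time field of experiment 2 reads day 8 for sham, imiquimod and the drug from day 0. It reads day 5 for the start on day 3 and day 3 for the start on day 5. Ears given the drug from day 5 cannot have been sampled with it on day 3, so there the field is not the sampling day. It may give the days on drug, with all groups sampled on day 8, but the labels do not say so. If a drug group was sampled on another day than its imiquimod group, that cannot be told apart from the start of the drug. The labels give neither the age of the mice nor the stage of the hair cycle, and they do not say that each library is a separate mouse, so p-values measure the spread between libraries. Library totals ran from 13098716 to 35363292 counts in experiment 1 and from 24074099 to 35545813 counts in experiment 2, and 3 counts correspond to 0.0844 CPM in the deepest and 0.229 CPM in the shallowest library.

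The promoters of the 3 genes called lower in all 4 imiquimod comparisons, Krtap3-2, Krtap3-3 and Krt32, are shown with that of Krt84, a hair keratin called higher in all 4. Each is the 250 bases before the annotated start (RefSeq, GRCm38.p6, read on the gene's strand, all 4 on the minus strand), and capitals mark TATANA, the letters of a core promoter box, on that strand. The regions are chr11:99556854-99557103 for Krtap3-2, chr11:99550864-99551113 for Krtap3-3, chr11:100088270-100088519 for Krt32 and chr15:101532821-101533070 for Krt84.
Krtap3-2: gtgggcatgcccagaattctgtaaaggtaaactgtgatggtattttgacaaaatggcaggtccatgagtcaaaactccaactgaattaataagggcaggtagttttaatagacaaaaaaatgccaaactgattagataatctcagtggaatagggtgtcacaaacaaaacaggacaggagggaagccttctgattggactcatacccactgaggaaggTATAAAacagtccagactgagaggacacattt
Krtap3-3: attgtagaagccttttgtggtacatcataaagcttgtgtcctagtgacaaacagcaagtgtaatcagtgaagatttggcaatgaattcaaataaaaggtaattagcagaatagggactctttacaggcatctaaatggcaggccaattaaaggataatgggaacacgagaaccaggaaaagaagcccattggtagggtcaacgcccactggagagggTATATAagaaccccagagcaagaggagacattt
Krt32: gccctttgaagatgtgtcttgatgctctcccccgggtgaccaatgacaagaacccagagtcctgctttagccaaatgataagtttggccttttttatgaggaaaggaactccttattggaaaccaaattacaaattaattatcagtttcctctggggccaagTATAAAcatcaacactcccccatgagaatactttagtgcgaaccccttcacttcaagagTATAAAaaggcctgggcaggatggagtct
Krt84: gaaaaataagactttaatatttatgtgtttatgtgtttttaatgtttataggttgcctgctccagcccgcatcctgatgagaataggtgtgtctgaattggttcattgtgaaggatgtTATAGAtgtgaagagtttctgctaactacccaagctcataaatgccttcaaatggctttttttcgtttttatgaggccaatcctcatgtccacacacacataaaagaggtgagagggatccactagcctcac
All 14 genes matched a RefSeq promoter. TATANA on the gene's strand, within 15 to 45 bases before the start, was found in 8 of the 14, among them Krtap3-2, Krtap3-3 and Krt32, and in 3.71% of 27025 promoters. Krt84 held the sequence only farther away, starting 132 bases before its start. CTTTG, the core letters bound by LEF1 and TCF factors, was found on either strand in 8 of the 14 and in 48.8% of all promoters. A match describes the letters only.

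Imiquimod lowered Krtap3-2, Krtap3-3 and Krt32 at every time and in both experiments. Krtap3-2 is a high-sulfur protein of the hair cortex. At day 2 its lowest, median and highest levels were 0.43, 0.659 and 1.65 CPM in imiquimod ears, against 4.2, 11.4 and 18.6 CPM in sham ears. At day 5 they were 0, 0.131 and 0.449 CPM in imiquimod ears, against 12.7, 16.9, 17.5 and 15.8 CPM in the 4 sham libraries. The groups did not overlap on either day. At day 8 imiquimod ears held 0, 0.0422 and 0.345 CPM, against 13.9, 15.6 and 24.2 CPM in sham ears, and 3 imiquimod libraries had no count at all. In experiment 2 the levels were 0.0314, 0.211 and 0.45 CPM in imiquimod ears, against 7.76, 14.8 and 18.1 CPM in sham ears, again without overlap. For imiquimod over sham the log2 fold changes were -3.57 ± 0.39 at day 2, -6.43 ± 0.51 at day 5 and -7.35 ± 0.55 at day 8 (± SE here and below, edgeR quasi-likelihood test, adjusted p = 1.16e-10, 2.12e-15 and 4.85e-16), and -5.71 ± 0.48 in experiment 2 (edgeR adjusted p = 1.78e-11). The effect differed among the days (edgeR F test, adjusted p = 0.000216). In a bulk punch, fewer cells of a type and less RNA in each of them cannot be told apart, here or for any gene below.

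Krtap3-3, its neighbour on chromosome 11 and a protein of the same subfamily, was scarcer and followed it. It reached 0.5 CPM in every sham library of experiment 1. With imiquimod it did so there only at day 2, in imiquimod library 12 (0.545 CPM) and drug library 15 (0.642 CPM). In experiment 2 only sham libraries reached it. Krtap3-3 was thus kept mainly through sham ears, which favours a lower call. Imiquimod ears held 0.0956, 0.211 and 0.545 CPM at day 2 as lowest, median and highest, against 0.654, 1.19 and 1.74 CPM in sham ears. At day 5 they held 0, 0.0413 and 0.292 CPM, against 0.966, 2.18, 0.986 and 1.29 CPM in the 4 sham libraries. No imiquimod library reached the lowest sham library of its day. At day 8 the 6 imiquimod libraries together held 1 count, against 198 in the 6 sham libraries, a depth-scaled ratio of 0.00654 with a 95% counting interval of 0.000165 to 0.0369. In experiment 2 imiquimod libraries together held 3 counts, against 135 in sham libraries, a ratio of 0.0193 with an interval of 0.00393 to 0.0576. These intervals cover counting error only. On the log2 scale the fold changes were -2.14 ± 0.51 at day 2 and -3.50 ± 0.58 at day 5 (edgeR adjusted p = 0.000349 and 9e-07), and day 8 and experiment 2 were also called (edgeR adjusted p = 1.53e-09 and 4.19e-07). Of its 31-base stretches 42.9% also occur in Krtap3-1 or Krtap3-2, so reads could be split between these genes. For Krtap3-2 the share in other genes was 30.9%.

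Krt32 is a type I keratin of the hair cuticle. At day 2 it stood at 0.153, 0.903 and 1.21 CPM (lowest, median, highest) in imiquimod ears, against 1.57, 2.54 and 2.89 CPM in sham ears. At day 5 it stood at 0.0486, 0.149 and 0.338 CPM in imiquimod ears, against 2.67, 2.64, 3.49 and 3.4 CPM in the 4 sham libraries. At day 8 the values were 0, 0.286 and 0.67 CPM in imiquimod ears, against 1.85, 2.27 and 4.12 CPM in sham ears. All 3 days were free of overlap, as was experiment 2, where imiquimod ears held 0, 0.0473 and 0.225 CPM, against 1.32, 2.08 and 2.84 CPM in sham ears. The log2 fold changes were -1.46 ± 0.36, -3.99 ± 0.45 and -2.88 ± 0.41 at days 2, 5 and 8 and -4.14 ± 0.41 in experiment 2 (edgeR adjusted p = 0.000413, 3.31e-11, 1.6e-08 and 5.2e-11). The effect differed among the days (edgeR F test, adjusted p = 0.00186), with the lowest imiquimod median at day 5.

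**Figure D1:**
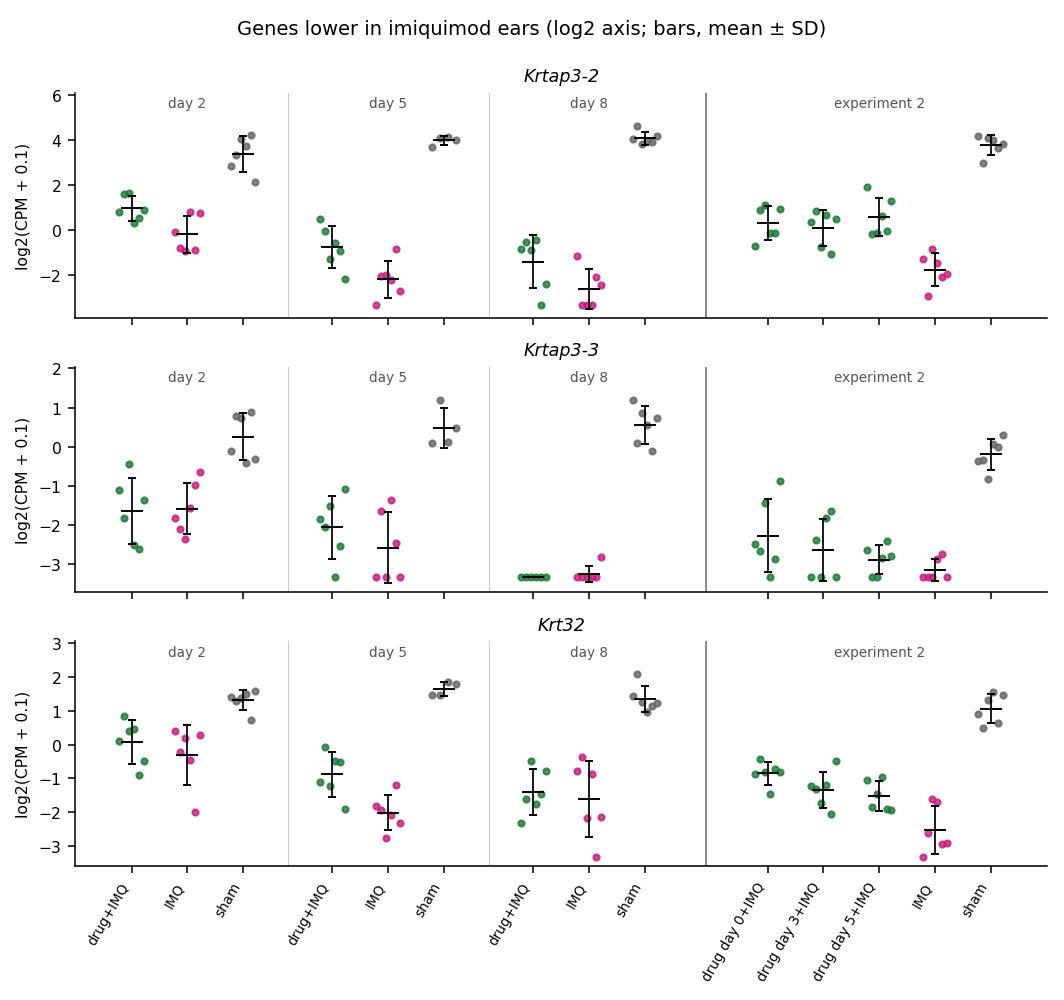
Level of Krtap3-2, Krtap3-3 and Krt32 as log2(CPM + 0.1), with a point for each library and bars for mean ± SD, for imiquimod with drug (drug+IMQ), imiquimod (IMQ) and sham at 3 times in experiment 1 and for the 5 groups of experiment 2. Every imiquimod library lies below every sham library of its day or experiment, and in experiment 2 the drug groups centre between them.

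With the CCR6 blocker, Krtap3-2, Krtap3-3 and Krt32 were called higher than with imiquimod alone in 4, 1 and 4 of the 6 drug comparisons, at levels far below sham. At day 5 Krtap3-2 measured 0.124, 0.497 and 1.28 CPM (lowest, median, highest) with drug and imiquimod, against 0, 0.131 and 0.449 CPM with imiquimod alone, and the groups overlapped. The log2 fold change was 1.85 ± 0.65 (edgeR adjusted p = 0.0221), and the call was lost without any of 4 single libraries (imiquimod libraries 25 and 30 and drug libraries 31 and 32, adjusted p = 0.052 to 0.0779) and with no filter on low counts (adjusted p = 0.0583). At day 2 it was 1.14 ± 0.43 (edgeR adjusted p = 0.0583) and at day 8 2.01 ± 0.85 (edgeR adjusted p = 0.248), neither called. In experiment 2 the levels were 0.502, 1.26 and 2.03 CPM with the drug from day 0, 0.374, 1.25 and 1.71 CPM from day 3 and 0.791, 1.15 and 3.63 CPM from day 5, against 0.0314, 0.211 and 0.45 CPM with imiquimod alone. The groups with the drug from day 0 and from day 5 lay wholly above imiquimod alone, and all 3 stayed far under the sham median of 14.8 CPM. The log2 fold changes over imiquimod were 2.46 ± 0.55, 2.25 ± 0.56 and 2.84 ± 0.53 for starts on days 0, 3 and 5 (edgeR adjusted p = 0.000927, 0.00247 and 0.000254). These 3 comparisons share their imiquimod libraries.

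Krt32 was also called higher with the drug at day 5 and in experiment 2. At days 2 and 8 it was not (log2 0.33 ± 0.37 and 0.10 ± 0.48, edgeR adjusted p = 0.596 and 0.956). At day 5 it measured 0.167, 0.484 and 0.856 CPM with drug and imiquimod, against 0.0486, 0.149 and 0.338 CPM with imiquimod alone, a log2 fold change of 1.57 ± 0.47 (edgeR adjusted p = 0.00761). In experiment 2 it measured 0.267, 0.469 and 0.649 CPM with the drug from day 0, 0.142, 0.316 and 0.619 CPM from day 3 and 0.162, 0.22 and 0.414 CPM from day 5, against 0, 0.0473 and 0.225 CPM with imiquimod alone. Only the start on day 0 lay wholly above imiquimod alone among these 3 groups. Fold changes on the log2 scale were 2.22 ± 0.45, 1.70 ± 0.47 and 1.40 ± 0.48 (edgeR adjusted p = 0.000243, 0.00472 and 0.0288), and the last was lost without any of 6 single libraries (imiquimod libraries 7, 8, 11 and 12 and drug libraries 13 and 16, adjusted p = 0.0621 to 0.0804). Krtap3-3 held 23 counts with the drug from day 0, against 3 counts with imiquimod alone, a ratio of 8.76 with a counting interval of 2.65 to 45.6 (edgeR adjusted p = 0.0223). Without drug library 27 or 30 that call was lost (adjusted p = 0.0593 and 0.116). With the drug from day 3 or day 5 the counts were 17 and 7, against 3, and at day 8 of experiment 1 they were 0 with drug and imiquimod, against 1 with imiquimod.

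Krt84 went the other way. It is a type II hair keratin best known from the filiform papillae of the tongue and, in human skin, from the nail. In sham ears it was near 1 CPM, and imiquimod raised it in every comparison. At day 2 it measured 1.94, 2.35 and 3.13 CPM (lowest, median, highest) in imiquimod ears, against 0.5, 0.664 and 0.931 CPM in sham ears. At day 5 it measured 1.8, 2.6 and 4.04 CPM in imiquimod ears, against 1.67, 1.79, 0.618 and 1.25 CPM in the 4 sham libraries, and at day 8 it measured 1.56, 2.36 and 2.97 CPM in imiquimod ears, against 0.69, 0.951 and 1.11 CPM in sham ears. In experiment 2 the levels were 4.05, 5.31 and 6.87 CPM in imiquimod ears, against 0.678, 0.85 and 1.71 CPM in sham ears. All 4 comparisons were free of overlap. The log2 fold changes were 1.95 ± 0.27, 1.24 ± 0.28 and 1.51 ± 0.26 at days 2, 5 and 8 and 2.64 ± 0.19 in experiment 2 (edgeR adjusted p = 1.63e-08, 8.89e-05, 9.71e-07 and 5.47e-14). No drug comparison called it lower, toward sham. In experiment 2 its medians were 6.02, 7.36 and 8.18 CPM with the drug from days 0, 3 and 5, against 5.31 CPM with imiquimod alone, and the starts on days 3 and 5 were called higher (log2 0.53 ± 0.16 and 0.68 ± 0.16, edgeR adjusted p = 0.0089 and 0.00138), while the start on day 0 was not (0.35 ± 0.16, edgeR adjusted p = 0.0839). Without imiquimod library 9 the start on day 0 was called higher too (0.45, edgeR adjusted p = 0.0315). In experiment 1 the drug gave -0.24 ± 0.24, 0.50 ± 0.23 and 0.64 ± 0.23 at days 2, 5 and 8, none called (edgeR adjusted p = 0.541, 0.0777 and 0.158). Day 5 was called without imiquimod library 28 or drug library 36 (edgeR adjusted p = 0.0252 and 0.0161).

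Krt82, a type II keratin of the hair cuticle, was too scarce to be tested in experiment 1. In experiment 2 it measured 0.0952, 0.318 and 0.862 CPM (lowest, median, highest) in imiquimod ears, against 0, 0.0737 and 0.175 CPM in sham ears, with overlap and a log2 fold change of 2.37 ± 0.64 (edgeR adjusted p = 0.00128). Its medians with the drug from days 0, 3 and 5 were 0.273, 0.527 and 0.383 CPM, and none was called against imiquimod (edgeR adjusted p = 0.933, 0.502 and 0.755). At day 5 of experiment 1 the 6 imiquimod libraries held 16 counts, against 0 in the 4 sham libraries. With 3 counts over the sham group in place of 0, the ratio of imiquimod to sham was 3.8, and the 95% counting interval began at 2.75. At day 2 there were 2 counts in imiquimod ears, against 5 in sham ears, a ratio of 0.471 with a counting interval of 0.0449 to 2.88, and at day 8 there were 14 counts, against 5. No sham library reached the minimum of 0.5 CPM, so Krt82 was kept only through libraries with imiquimod. That rule favours a higher call. In experiment 2 the cuticle keratin Krt32 was called lower and Krt82 higher, and the contrast rests in part on how Krt82 was kept.

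Krtap19-2 belongs to the high glycine-tyrosine proteins, which are among the first keratin-associated proteins made in the shaft. It was called lower from day 5 on. At day 2 it measured 14.4, 23.6 and 36.9 CPM (lowest, median, highest) in imiquimod ears, against 16.1, 22.4 and 29.2 CPM in sham ears (log2 0.25 ± 0.35, edgeR adjusted p = 0.558). At day 5 the levels were 1.44, 13.3 and 22.7 CPM in imiquimod ears, against 21.3, 26, 43 and 25.7 CPM in the 4 sham libraries, with a single imiquimod library above the lowest sham library (log2 -0.99 ± 0.38, edgeR adjusted p = 0.0198). That call was lost without sham library 21 (log2 -0.73, adjusted p = 0.116) and in a fit of only these 2 groups (adjusted p = 0.118). At day 8 imiquimod ears held 2.86, 7.33 and 15.7 CPM, against 21.6, 25.4 and 29.9 CPM in sham ears, and in experiment 2 they held 0.557, 4.08 and 9.29 CPM, against 15.1, 24.5 and 31.6 CPM in sham ears, both without overlap. The log2 fold changes were -1.61 ± 0.38 and -2.07 ± 0.41 (edgeR adjusted p = 0.000215 and 5.59e-05). The effect differed among the days (edgeR F test, adjusted p = 0.0108).

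With the drug, Krtap19-2 was called higher than with imiquimod alone in 5 of the 6 drug comparisons. At day 2 it was not called (log2 0.46 ± 0.34, edgeR adjusted p = 0.385). At day 5 it measured 12.7, 28.3 and 45.3 CPM with drug and imiquimod, against 1.44, 13.3 and 22.7 CPM with imiquimod alone, and at day 8 7.57, 21.1 and 32.8 CPM, against 2.86, 7.33 and 15.7 CPM with imiquimod alone. As log2 fold changes these were 1.24 ± 0.35 and 1.42 ± 0.38 (edgeR adjusted p = 0.00483 and 0.0395), with overlap on both days. In fits of only the 2 groups neither was called (edgeR adjusted p = 0.0714 and 0.141). The day 8 call was also lost with no filter on low counts (adjusted p = 0.0833) and without any one of 9 libraries (imiquimod libraries 45 to 49 and drug libraries 51, 52, 54 and 56, adjusted p = 0.0599 to 0.143). In experiment 2 the levels were 13.6, 24.4 and 36 CPM with the drug from day 0, 15.2, 21.5 and 37.7 CPM from day 3 and 10.4, 23.1 and 45.3 CPM from day 5, against 0.557, 4.08 and 9.29 CPM with imiquimod alone and 15.1, 24.5 and 31.6 CPM in sham ears. All 3 drug groups lay wholly above imiquimod alone, at medians near that of sham. Over imiquimod the log2 fold changes were 2.33 ± 0.41, 2.27 ± 0.41 and 2.32 ± 0.41 (edgeR adjusted p = 7.82e-05, 0.000114 and 0.000143). Of its 31-base stretches 33.7% also occur in Krtap19-1, Krtap19-3, Krtap19-4 or Krtap16-3.

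Krt75, the type II keratin of the companion layer, was called in opposite directions in the experiments. Imiquimod ears measured 13.6, 14.7 and 19 CPM at day 2 (lowest, median, highest), against 17.1, 19.9 and 23.8 CPM in sham ears. At day 5 they measured 9.38, 11.7 and 18.3 CPM, against 24.4, 21, 22.8 and 21.2 CPM in the 4 sham libraries, and at day 8 5.32, 7.12 and 11.1 CPM, against 18.1, 20.1 and 23.3 CPM in sham ears. Days 5 and 8 did not overlap. In experiment 2 imiquimod ears measured 18.4, 21.1 and 28.5 CPM, against 16.7, 19.2 and 21.8 CPM in sham ears, with overlap. The log2 fold changes were -0.30 ± 0.17, -0.62 ± 0.18 and -1.28 ± 0.18 at days 2, 5 and 8 (edgeR adjusted p = 0.128, 0.00264 and 1.18e-08, differing among days with an F test adjusted p = 0.00419), and 0.44 ± 0.13 in experiment 2 (edgeR adjusted p = 0.00257). Day 2 was called in a fit of only its 2 groups (adjusted p = 0.0121). In experiment 2 the median log2 fold change over all genes was -0.21 on library totals, as used for CPM, and -0.02 with TMM, as used for the tests. The rise of Krt75 there is smaller in CPM than in its fold change. In a joint edgeR fit of both experiments, added after the values were seen, the imiquimod effect of experiment 2 minus that of day 8 was 1.77 ± 0.22 (adjusted p = 3.19e-09, with 21.4% of 19455 genes called). The sham medians were close, at 19.2 CPM in experiment 2 and 20.1 CPM at day 8. With the drug from days 0, 3 and 5, Krt75 measured medians of 14.8, 15.6 and 15.9 CPM, against 21.1 CPM with imiquimod alone and 19.2 CPM in sham ears, and the log2 fold changes over imiquimod were -0.54 ± 0.13, -0.45 ± 0.13 and -0.43 ± 0.13 (edgeR adjusted p = 0.00153, 0.00693 and 0.0117). The drug effect from day 0 minus that at day 8 was -0.96 ± 0.23 (edgeR adjusted p = 0.0258, with 0.828% of all genes called).

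Krtap16-3, another small protein of the hair shaft, split the experiments in the same way, with whole libraries listed at 0. At day 2 the imiquimod libraries held 0, 0.52 and 13.5 CPM (lowest, median, highest), against 0, 17.2 and 30.7 CPM in sham ears. At day 5 4 of 6 imiquimod libraries were at 0 and the highest held 7.92 CPM, against 22.3, 39, 36.9 and 20.6 CPM in the 4 sham libraries. At day 8 imiquimod ears held 8.07, 12 and 18 CPM, against 16.7, 28.7 and 39.6 CPM in sham ears. Day 5 was free of overlap. In experiment 2 imiquimod ears held 21.6, 32.3 and 50.5 CPM, against 0, 6.34 and 11.9 CPM in sham ears, again free of overlap and in the opposite direction. In log2 terms the fold changes were -2.50 ± 0.85, -3.86 ± 0.92 and -1.01 ± 0.73 at days 2, 5 and 8 (edgeR adjusted p = 0.0109, 0.000277 and 0.222) and 2.72 ± 0.47 in experiment 2 (edgeR adjusted p = 1.02e-05). The day 2 call was lost with DESeq2 (adjusted p = 0.0716), in a fit of only the 2 groups (0.0761) and without imiquimod libraries 9 and 11 (0.0735), while day 8 was called in a fit of only its 2 groups (-1.05, adjusted p = 0.00277). In the joint edgeR fit the effect in experiment 2 minus that at day 8 was 3.78 ± 0.87 (adjusted p = 0.000573). The sham groups themselves stood apart, with medians of 6.34 CPM in experiment 2 and 28.7 CPM at day 8, and the part of the authors' counting in the values at 0 was not tested. For Krt84, raised in both, the same difference was 1.18 ± 0.33 (edgeR adjusted p = 0.0059).

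**Figure D2:**
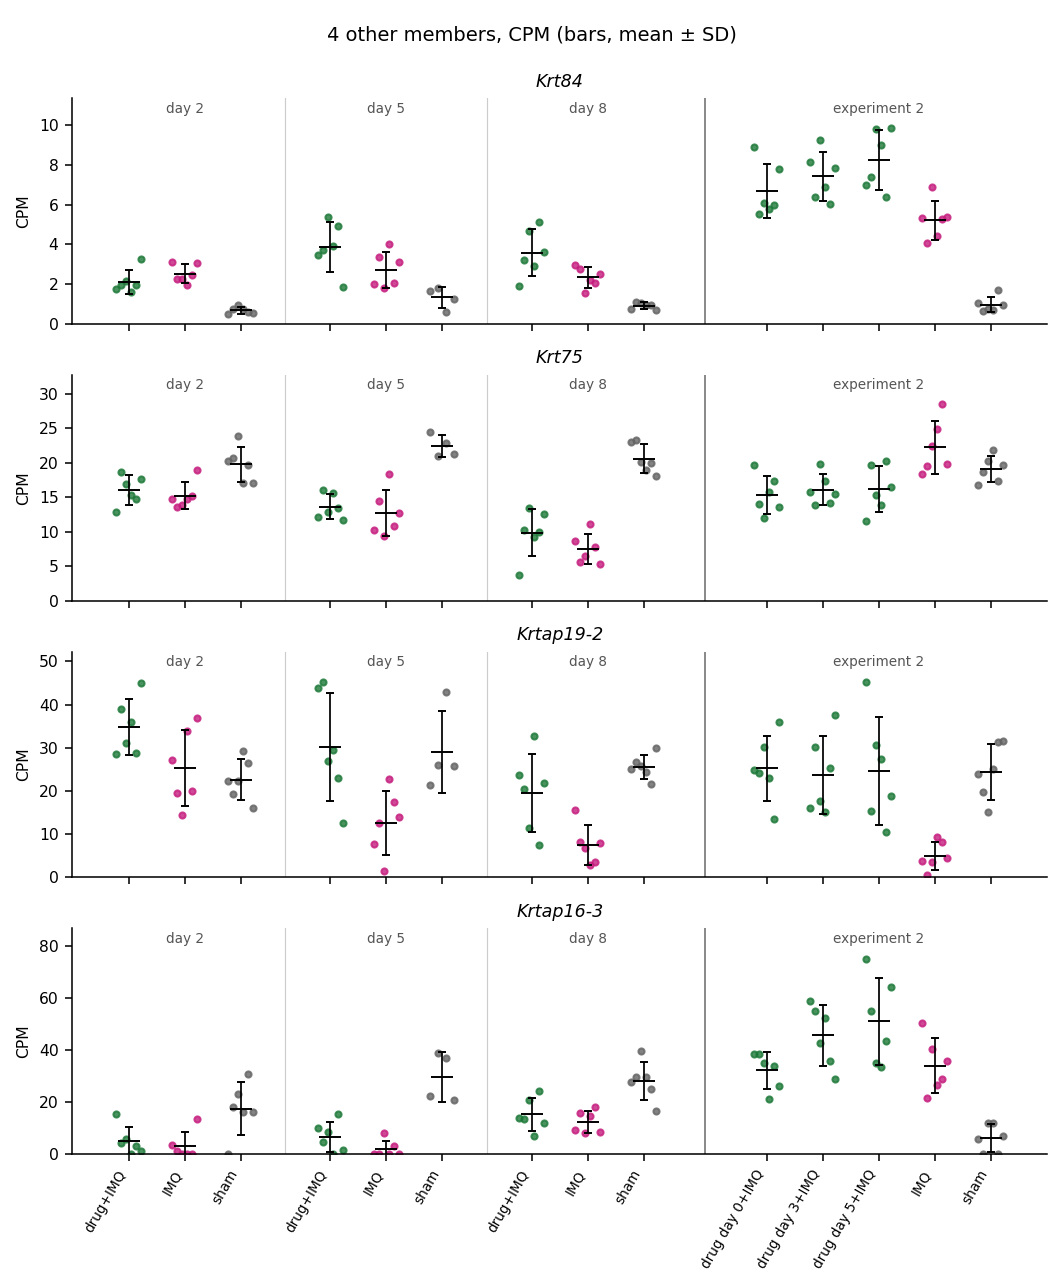
CPM of Krt84, Krt75, Krtap19-2 and Krtap16-3, with a point for each library and bars for mean ± SD, for drug with imiquimod (drug+IMQ), imiquimod (IMQ) and sham. Krt84 is higher with imiquimod in both experiments, Krtap19-2 is lower with imiquimod at day 8 and in experiment 2 with the drug groups centred above imiquimod, and Krt75 and Krtap16-3 lie below sham at day 5 and above or around it in experiment 2.

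With all libraries edgeR called 1 of the 5 inner root sheath keratins once in the imiquimod and drug comparisons of experiment 1. Of all genes tested, the drug comparisons called 16.5%, 35.4% and 1.56% at days 2, 5 and 8. Krt25, Krt27 and Krt28 are type I and Krt71 and Krt73 type II keratins of the sheath that guides the growing shaft. None was called by edgeR for imiquimod over sham at days 2, 5 and 8, where 57.7%, 70.4% and 68.1% of all genes tested were called. Krt27 came nearest, at 0.305, 0.396 and 0.566 CPM (lowest, median, highest) in imiquimod ears at day 2, against 0.0283, 0.165 and 0.349 CPM in sham ears, with overlap (log2 1.42 ± 0.66, edgeR adjusted p = 0.0598). DESeq2 called it higher (1.42, adjusted p = 0.0478), as did edgeR without sham library 5 (1.74, adjusted p = 0.0335). Krt71 had median levels of 0.878, 0.996 and 1.24 CPM at days 2, 5 and 8 in imiquimod ears, against 1.1, 1.04 and 1.07 CPM in sham ears, and its log2 fold changes were -0.15 ± 0.39, 0.17 ± 0.42 and 0.28 ± 0.37 (edgeR adjusted p = 0.767, 0.734 and 0.518). Krt28 had 0.676, 0.468 and 0.691 CPM in imiquimod ears, against 0.696, 0.651 and 0.806 CPM in sham ears. With the drug at day 2 Krt71 measured 1.08, 1.36 and 3.38 CPM (lowest, median, highest), against 0.754, 0.878 and 1.19 CPM with imiquimod alone, and was called higher (log2 1.05 ± 0.38, edgeR adjusted p = 0.0464). That call was lost without drug library 15 (log2 0.79, adjusted p = 0.178), without drug library 18 (0.88, 0.115) and without any of the 6 imiquimod libraries. For Krt27 the drug at day 5 gave 1.37 ± 0.57 (edgeR adjusted p = 0.0523), and it was called without imiquimod library 27 or drug library 33, 34 or 36 (adjusted p = 0.0235 to 0.0376).

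Single libraries held much of their signal. Among the 6 libraries of imiquimod with drug at day 5, library 35 held 2.52 CPM of Krt25, with 0.0438 to 0.104 CPM in the others. The same library held 4.76 CPM of Krt71, with 0.52 to 1.44 CPM in the others, and 2.24 CPM of Krt27, with 0.167 to 0.572 CPM in the others. Its Krt73 was also the highest of its group at 0.923 CPM. In experiment 2 imiquimod library 9 held 3.69 CPM of Krt25, with 0 to 0.159 CPM in the other 5. It also held 4.98 CPM of Krt71, with 0.453 to 0.848 CPM in the others, and 1.24 CPM of Krt73, with 0.0317 to 0.121 CPM in the others. Several root sheath genes were thus high together in 1 library while the other libraries of its group stayed low. Sham ears of experiment 2 were mixed in the same way: Krt25 measured 1.36, 1.12 and 1.87 CPM in libraries 3, 5 and 6, and 0.125, 0.0968 and 0.151 CPM in libraries 1, 2 and 4. With drug and imiquimod at day 2, libraries 15 and 18 held the most Krt25 (1.74 and 1.52 CPM) and Krt71 (3.38 and 2.94 CPM) of their group. The labels record no hair cycle stage, and its part in these values was not tested.

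In experiment 2 the imiquimod calls of Krt25, Krt71 and Krt73 turned on library 9, and those of Krt27 and Krt28 did not. With all libraries only Krt28 was called of the 5 inner root sheath keratins, where 78.1% of all genes tested were called. It measured 0.151, 0.359 and 1.32 CPM (lowest, median, highest) in imiquimod ears, against 0.872, 1.16 and 1.87 CPM in sham ears (log2 -1.08 ± 0.35, edgeR adjusted p = 0.00599). For Krt25, Krt71 and Krt73 the log2 fold changes were -0.05 ± 0.98, 0.11 ± 0.44 and -0.40 ± 0.75 (edgeR adjusted p = 0.967, 0.818 and 0.63). Library 9 was the highest of its group for these genes, while sham libraries 3, 5 and 6, high for Krt25, stayed in. Fits without library 9 thus favour a decrease and show only how much that library weighs. In them the log2 fold changes of Krt25, Krt71 and Krt73 were -4.26, -0.87 and -2.42 (edgeR adjusted p = 0.00119, 0.013 and 0.00544). Without library 9 that of Krt28 was -1.69 (adjusted p = 2.03e-05). Krt27 was called neither with it (0.15 ± 0.41, edgeR adjusted p = 0.742) nor without it (-0.32, adjusted p = 0.477). Against the drug groups the sign of Krt25 turned with that library: for the start on day 0 the log2 fold change over imiquimod was -2.66 ± 1.28 with it and 1.56 without it (edgeR adjusted p = 0.112 and 0.443).

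**Figure D3:**
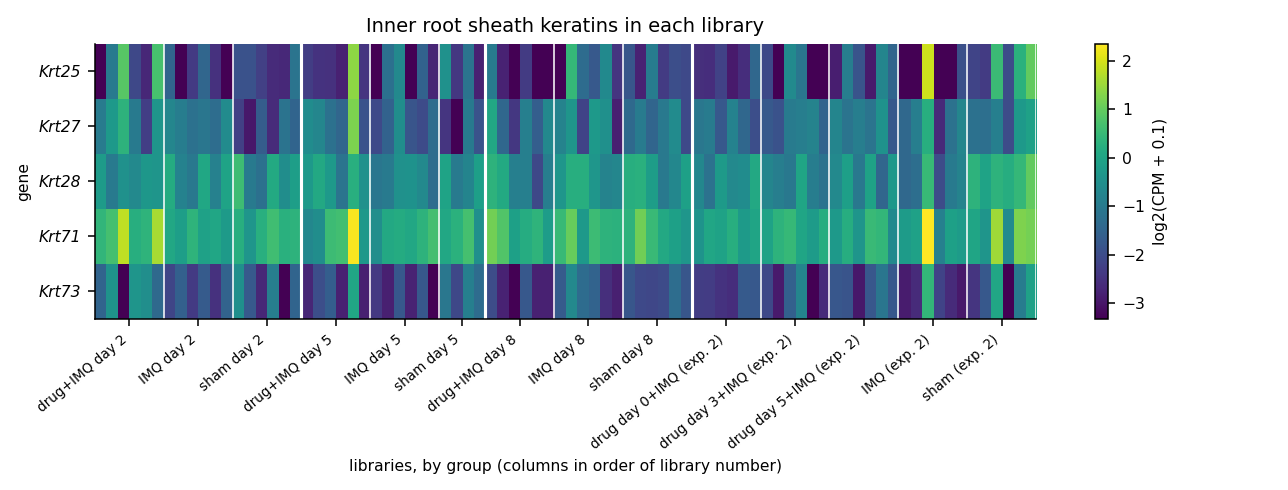
Colour gives log2(CPM + 0.1) of 5 inner root sheath keratins (rows) in each of the 82 libraries (columns, by group, separated by white lines). Bright columns are single libraries or some libraries of a group, and not whole groups. Examples are library 35 of drug and imiquimod at day 5, imiquimod library 9 of experiment 2 and sham libraries 3, 5 and 6 of experiment 2.

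Within groups, after each gene's group mean had been taken off its log2 CPM, pairs of members were correlated over the 52 libraries of experiment 1 and the 30 of experiment 2, with 78 pairs in each and permutation p-values adjusted over them. All genes of a library share its depth and composition. In experiment 1 Krt25 went with Krt71 (Pearson r = 0.58, Spearman rho = 0.41, adjusted permutation p = 0.026 and 0.089) and with Krt27 (r = 0.54, rho = 0.44, adjusted permutation p = 0.026 and 0.05). Without the 2 libraries farthest from the median of a single gene of the pair, r was 0.41 and 0.43. Far libraries of the other gene stayed in, here and below. Krt27 went with Krt71 (r = 0.51, rho = 0.35, adjusted permutation p = 0.033 and 0.24, r = 0.41 without 2), and Krt28 with Krt73 (r = 0.42, rho = 0.45, adjusted permutation p = 0.035 and 0.05, r = 0.43 without 2). Among the other classes Krt75 went with Krt84 (r = 0.52, rho = 0.49, adjusted permutation p = 0.026 and 0.027, r = 0.48 without 2), and Krtap19-2 with Krtap3-2 (r = 0.50, rho = 0.58, adjusted permutation p = 0.031 and 0.011, r = 0.58 without 2). In experiment 2 the pairs past 0.05 by Pearson's r were Krt25 with Krt73 (r = 0.80, rho = 0.69, adjusted permutation p = 0.022 and 0.055, r = 0.70 without 2) and Krtap3-2 with Krtap16-3 (r = 0.32, rho = 0.50, adjusted permutation p = 0.027 and 0.055, r = 0.33 without 2). Reads could also be shared between some of these genes, since 15.7% of the 31-base stretches of Krt25 and 17.8% of those of Krt27 occur in each other, in Krt28 or in the bulge keratin Krt15.

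Krtap13-1, a high-sulfur protein of the shaft, was scarce throughout. It reached 0.5 CPM in imiquimod library 28 at day 5, imiquimod libraries 45 and 49 at day 8 and sham library 38 at day 8. It was thus kept mainly through imiquimod ears, which favours a higher call. At day 8 it measured 0.174, 0.317 and 0.956 CPM (lowest, median, highest) in imiquimod ears, against 0, 0 and 0.534 CPM in sham ears, with overlap and a log2 fold change of 2.14 ± 0.90 (edgeR adjusted p = 0.0323). DESeq2 did not call it (adjusted p = 0.0739), nor did edgeR with no filter on low counts (adjusted p = 0.113) or without any of 4 sham libraries (39, 40, 41 and 42, adjusted p = 0.0638 to 0.0756). In experiment 2, where it was not tested, its medians were 0.0892 CPM in imiquimod ears and 0.0839 CPM in sham ears.

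Counted over the 13 members tested in each experiment, the shares called were mostly below or near those of all genes. Imiquimod over sham called 1 member higher and 4 lower at day 2 (57.7% of all 18780 genes tested were called, 29.2% higher and 28.5% lower) and 1 higher and 6 lower at day 5 (70.4%, 34.6% higher and 35.9% lower). It called 2 higher and 5 lower at day 8 (68.1%, 34.5% higher and 33.6% lower), and 4 higher and 5 lower in experiment 2 (78.1% of 18434 genes, 38.1% higher and 39.9% lower). These counts include calls that the rule for keeping genes favours. Krtap13-1, higher at day 8, and Krt82, higher in experiment 2, were kept mainly or only through libraries with imiquimod. Krtap3-3, lower in each of these comparisons, was kept mainly through sham ears. The median log2 fold changes of the members were -0.30, -0.62, 0.10 and -0.05, against -0.03, -0.04, -0.01 and -0.02 over all genes tested. Imiquimod with drug over imiquimod called 1 member higher at day 2 (16.5% of all genes, 6.9% higher and 9.61% lower), 3 higher at day 5 (35.4%, 18.3% higher and 17.2% lower) and 1 higher at day 8 (1.56%, 1.22% higher and 0.335% lower), and none lower on these days. The starts on days 0, 3 and 5 each called 4 higher and 1 lower, the last being Krt75, where 35.1% of all genes (18.2% higher, 16.9% lower), 34.3% (18% higher, 16.4% lower) and 27.7% (15% higher, 12.7% lower) were called. Among days 2, 5 and 8 the effect of imiquimod was called different for 5 members (33.4% of all genes), and the drug effect for none by edgeR or DESeq2 (7.99% of all genes, 3 members at an unadjusted p under 0.05). Sham ears did not show a difference among days in any member by edgeR or DESeq2 (5.52% of all genes), with 1 member, Krt84, at an unadjusted p under 0.05.

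**Figure D4:**
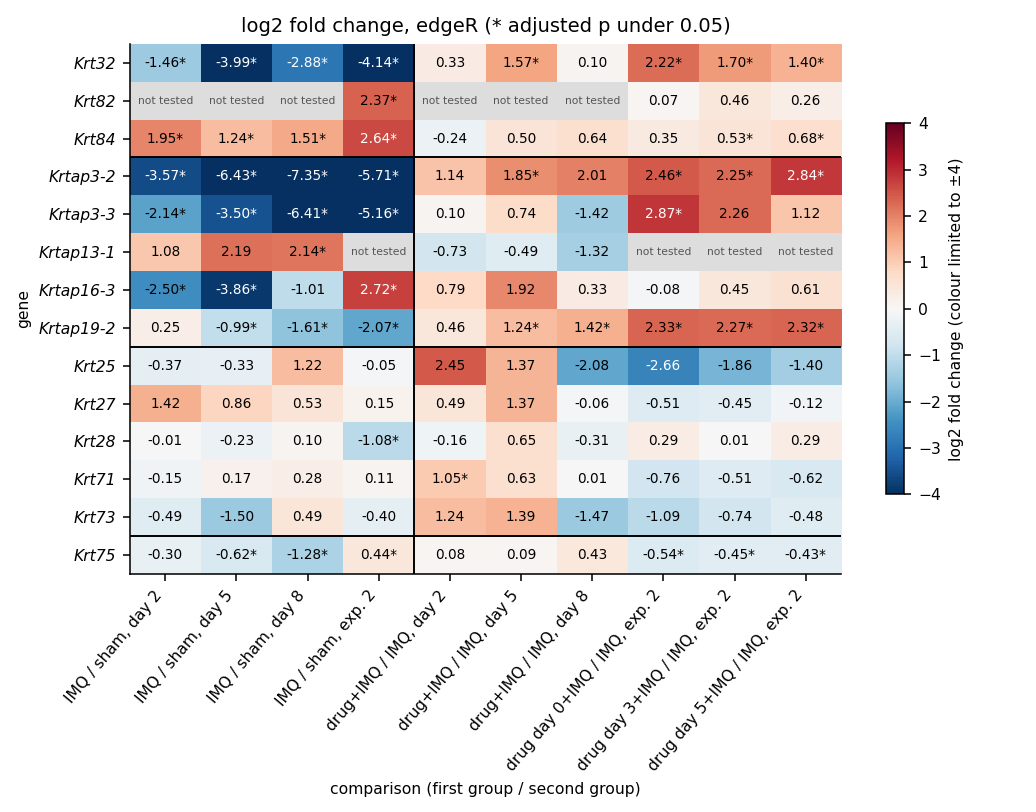
log2 fold change of each of the 14 genes (rows, by class) in 10 comparisons (columns), with a star where the edgeR adjusted p was under 0.05 and grey where a gene was not tested. Krtap3-2, Krtap3-3 and Krt32 are lower with imiquimod throughout, Krt84 is higher throughout, and Krt75 and Krtap16-3 are called in opposite directions in experiments 1 and 2.

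Genes around the follicle were followed in lists. Of 14 bulge and stem cell genes, all tested, imiquimod over sham lowered 9, 13 and 13 at days 2, 5 and 8 and 13 in experiment 2, where 28.5%, 35.9%, 33.6% and 39.9% of all genes tested were called lower. The single gene raised was Plet1, a marker of the upper follicle (log2 1.93 ± 0.19, 2.03 ± 0.22, 1.00 ± 0.18 and 1.88 ± 0.16, edgeR adjusted p = 6.48e-12, 2.86e-11, 6.07e-06 and 1.63e-11). The list's median log2 fold changes were -0.32, -1.02, -0.97 and -1.35. Krt15, the keratin of bulge and basal cells, averaged 149 ± 31 CPM in imiquimod ears at day 8, against 1890 ± 118 CPM in sham ears (SD, n = 6 each), a log2 fold change of -3.50 ± 0.23 (edgeR adjusted p = 1.53e-17). Lgr5, a receptor of follicle stem cells, averaged 4.78 ± 0.9 CPM in imiquimod ears, against 10.4 ± 1.16 CPM in sham ears (-0.96 ± 0.13, edgeR adjusted p = 6.71e-09), and Cd34 averaged 104 ± 7.03 CPM, against 146 ± 12.5 CPM (-0.30 ± 0.08, edgeR adjusted p = 0.000369). The drug over imiquimod raised 10 of the 14 and lowered 1 at day 5, where 18.3% of all genes were called higher and 17.2% lower. It raised 10, 8 and 8 for starts on days 0, 3 and 5, where 18.2%, 18% and 15% of all genes were called higher.

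Of 17 regulators of the hair matrix 15 were tested, and imiquimod lowered 6, 10 and 10 and raised 4, 2 and 2 at days 2, 5 and 8, with 9 lowered and 5 raised in experiment 2. Of all genes tested 28.5%, 35.9% and 33.6% were called lower and 29.2%, 34.6% and 34.5% higher on these days, with 39.9% and 38.1% in experiment 2. Hoxc13, a homeobox factor that binds hair keratin promoters, averaged 1.83 ± 0.546 CPM in imiquimod ears at day 8, against 7.04 ± 0.937 CPM in sham ears (SD, n = 6 each). Its log2 fold changes were -2.10 ± 0.22 at day 5, -1.80 ± 0.21 at day 8 and -1.57 ± 0.18 in experiment 2 (edgeR adjusted p = 7.72e-12, 6.93e-11 and 1.07e-09), and the drug over imiquimod raised it by 1.29 ± 0.21 at day 5 and 1.17 ± 0.18 from day 0 (edgeR adjusted p = 5.57e-06 and 7.41e-06). At day 8 Wnt10b, a ligand of the growing follicle, fell by 3.14 on the log2 scale, Msx2 by 2.01, Lef1 by 1.22, Gata3 by 1.02 and Dlx3 by 0.74 (edgeR adjusted p = 2.75e-12, 1.32e-13, 1.91e-08, 4.47e-12 and 1.71e-05). Foxn1, the factor lacking in nude mice, went up by 0.78 ± 0.09 (edgeR adjusted p = 8.2e-11). In experiment 2 Dlx3 was called in the other direction (0.26 ± 0.12, edgeR adjusted p = 0.0416). Its mean levels there were close, at 41.9 CPM in imiquimod ears, against 40.7 CPM in sham ears. Shh, the growth signal of the matrix, was too scarce to be tested, at means of 0.0106, 0.0326 and 0.133 CPM in imiquimod ears at days 2, 5 and 8, against 0.0458, 0.0525 and 0.0081 CPM in sham ears, and 0.0559 CPM in imiquimod ears of experiment 2, against 0.0694 CPM in sham ears. Of the 6 imiquimod libraries at day 8, 3 were at 0.

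Proteins of the shaft and sheath other than keratins were divided. At day 8 7 of 12 tested were raised and 3 lowered, and in experiment 2 7 of 11 were raised and 3 lowered, where 34.5% and 38.1% of all genes were called higher. Tchh, the trichohyalin of the inner root sheath and medulla, averaged 13.2 ± 1.77 CPM in imiquimod ears at day 8, against 6.27 ± 1.19 CPM in sham ears (1.25 ± 0.12, edgeR adjusted p = 2.27e-13), and Padi3, an enzyme that modifies it, averaged 0.452 ± 0.185 CPM, against 0.0828 ± 0.0958 CPM (2.59 ± 0.58, edgeR adjusted p = 0.000107). S100a3, a protein of the hair cuticle, averaged 1.07 ± 0.16 CPM in imiquimod ears, against 5 ± 1.1 CPM in sham ears (-2.05 ± 0.23, edgeR adjusted p = 3.1e-11). Dsg4, the desmoglein of the hair cortex, was near 0, at 0.0115 CPM in imiquimod ears and 0.0625 CPM in sham ears.

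Of 15 dermal papilla genes imiquimod lowered 6, 9 and 11 and raised 1, 4 and 2 at days 2, 5 and 8, with 12 lowered and 1 raised in experiment 2. These counts stand beside 28.5%, 35.9%, 33.6% and 39.9% of all genes called lower, and all called members of the list together beside 57.7%, 70.4%, 68.1% and 78.1%. Wif1 fell by 2.21 and Corin by 2.10 on the log2 scale at day 8 (edgeR adjusted p = 1.36e-23 and 4.49e-17). Other papilla genes averaged higher with imiquimod. Alpl averaged 7.08 CPM in imiquimod ears at day 8, against 3.2 CPM in sham ears, and 12.5 CPM in experiment 2, against 3.71 CPM. Crabp1 averaged 13.6 CPM at day 5, against 5.95 CPM in sham ears, and 6.51 CPM at day 8, against 6.2 CPM. All 8 proliferation genes rose at days 2, 5 and 8 and in experiment 2, where 29.2%, 34.6%, 34.5% and 38.1% of all genes were called higher. Mki67 stood at 225 ± 24.3 CPM in imiquimod ears at day 8, against 67.7 ± 13 CPM in sham ears (1.91 ± 0.13, edgeR adjusted p = 1.44e-17). All 4 stress keratins rose as well, with median log2 fold changes of 4.72, 8.49, 7.28 and 8.15 at days 2, 5 and 8 and in experiment 2. Markers of other tissue were called beside the hair genes. At day 8, where 33.6% of all genes were called lower and 34.5% higher, imiquimod over sham lowered 7 of 9 sebaceous gland genes, 8 of 11 melanocyte genes, all 4 skeletal muscle genes, 2 of 4 cartilage genes, both adipocyte genes and 1 of 3 fibroblast genes, and raised 1 melanocyte gene, 1 fibroblast gene, both leukocyte genes and 6 of 9 genes of the interfollicular epidermis, with 3 of those 9 lowered. Their part in the values of the hair genes was not tested.

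**Figure D5:**
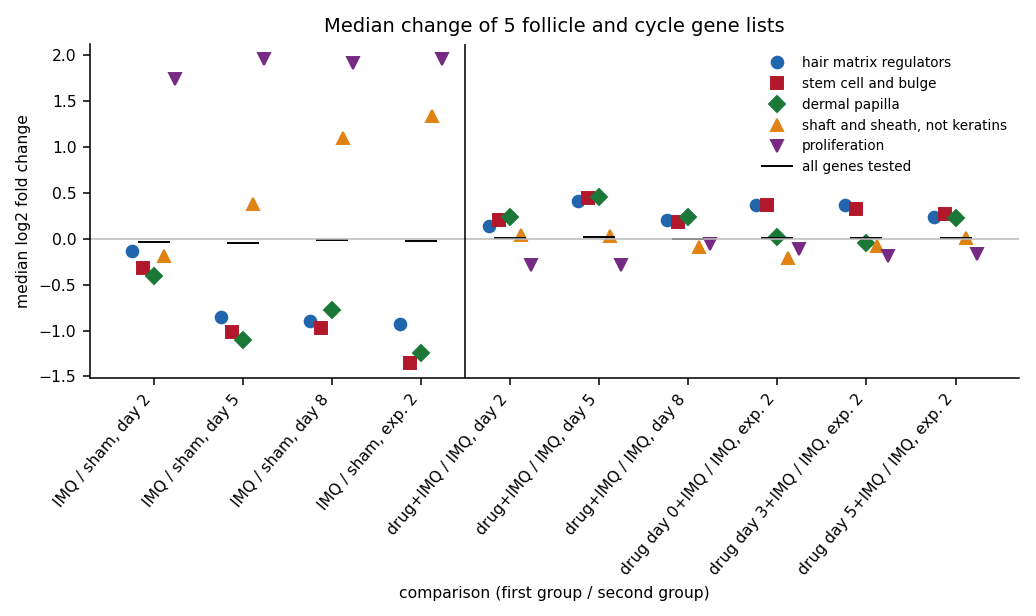
Median log2 fold change of each gene list and of all genes tested (vertical axis) in each comparison (horizontal axis). The bulge list lies below all genes with imiquimod over sham, at -1.02 at day 5, and above them with the drug at day 5, at 0.44.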

How the data were processed

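Each deposited table gives, library by library, the estimated counts of every gene, made by the authors with salmon, per the names of the deposited tables, on GRCm39, per the submitters' processing notes. For salmon's version, the annotation release, strand setting and filters: not given in the sources used here. Estimated counts were rounded. Genes were filtered with filterByExpr, scaled by TMM and tested with edgeR 4.0.16 (quasi-likelihood, robust, 1 coefficient per group, all libraries of an experiment), with Benjamini-Hochberg adjustment over all genes tested and a threshold of 0.05. The fit was tested on simulated data. DESeq2 1.42.0, RLE scaling, no filter, fits of only the 2 compared groups and each library left out were alternatives, and a joint fit of both experiments and leaving out imiquimod day 2 libraries 9 and 11 were chosen after seeing the data. Levels are CPM on library totals. No library pair was a copy: of 201 pairs within groups the lowest chi-square per gene was 4.13. The members and lists were chosen with earlier results of these data known. Genes named were the most abundant of each class, called members with the largest changes, a fixed panel and called genes of each list with the smallest adjusted p. The planned division of Krtap genes by protein composition was not made, since no protein table was used here. Promoters came from RefSeq on GRCm38.p6, and shared 31-base stretches from GENCODE transcripts.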

Additional observations from a re-analysis of the deposited data

Results flagged for a closer look

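Of 194 sets of 1 gene in 1 group, 26 (13.4%) had a library far from the others. The cut-off flags about 1 in 20 sets when values follow a normal distribution. Many sets here were skewed or near 0, where 1 count could be flagged, so the share does not measure an excess. In experiment 2 imiquimod library 9 stood high for Krt25 (3.69 CPM), Krt28 (1.32), Krt71 (4.98) and Krt73 (1.24). Library 35 of drug and imiquimod at day 5 stood high for Krt25 (2.52 CPM), Krt27 (2.24), Krt71 (4.76) and Krt73 (0.923). Sham library 38 at day 8 stood high for Krt32 (4.12 CPM), Krtap3-2 (24.2) and Krtap13-1 (0.534). Other root sheath values that stood high were Krt25 in library 30 of the drug from day 0 (0.272 CPM), in drug library 51 at day 8 (0.403) and in sham library 39 at day 8 (0.424), Krt27 in imiquimod library 27 at day 5 (0.583), Krt28 in library 22 of the drug from day 3 (0.9) and Krt73 in sham library 41 at day 8 (0.31). At day 2 imiquimod library 12 was high for Krt75 (19 CPM) and Krtap16-3 (13.5), drug library 13 for Krtap16-3 (15.4) and drug library 18 for Krt84 (3.27), and Krt84 was high in sham library 5 of experiment 2 (1.71). Krtap3-2 was high in imiquimod library 29 at day 5 (0.449 CPM). Krt82 in imiquimod library 9 (0.0956 CPM) and drug library 17 (0.0542) at day 2 and Krtap3-3 in imiquimod library 49 at day 8 (0.0422) were the only libraries of their groups above 0.

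The imiquimod effect differed among days 2, 5 and 8 for Krtap3-2, Krt32, Krt75, Krtap3-3 and Krtap19-2 (edgeR F test, adjusted p = 0.000216, 0.00186, 0.00419, 0.00682 and 0.0108). Between experiment 2 and day 8 of experiment 1 the imiquimod effect differed by 1.77 on the log2 scale for Krt75, 1.18 for Krt84 and 3.78 for Krtap16-3, and the drug effect by -0.96 ± 0.23 for Krt75 (edgeR adjusted p = 0.0258, with 0.828% of 19455 genes called). That last call was lost with no filter (adjusted p = 0.0572) and without drug library 53 of day 8, imiquimod library 11 of experiment 2 or drug library 30 of experiment 2 (adjusted p = 0.0888, 0.0543 and 0.0544).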

How the results depend on the processing

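RLE scaling changed no call of a member in any comparison. Against 1, 3 and 1 members called for the drug over imiquimod at days 2, 5 and 8, fits of only the 2 groups called 0, 0 and 0, and for the drug from day 0 they called 3 in place of 5. Krt71 at day 2 and Krtap19-2 at days 5 and 8 were tested there and not called, while Krt32 and Krtap3-2 at day 5 and Krt32 and Krtap3-3 from day 0 fell below the filter on low counts and were not tested. With no filter on low counts the drug called 0 at day 2 and 0 at day 8, and the difference of its effect between the experiments called 0 in place of 1. Without imiquimod day 2 libraries 9 and 11 the drug called 0 at day 2. Leaving out 1 library at a time, imiquimod over sham called 5 to 6, 7 to 8 and 6 to 7 members at days 2, 5 and 8 and 9 to 12 in experiment 2. The drug called 0 to 2, 2 to 5 and 0 to 1 at days 2, 5 and 8, and 4 to 7, 5 to 5 and 4 to 6 for starts on days 0, 3 and 5. The tests among days called 5 to 6 for imiquimod, 0 to 1 for the drug and 0 to 1 for sham, and those between experiments 3 to 6 for imiquimod and 0 to 1 for the drug. The 1 reversal was Krt71 in experiment 2, at -0.87 without imiquimod library 9 and 0.11 with it, and from -0.87 to 0.36 over all single libraries left out. The cause of these changes was not tested, beyond the fewer libraries or other genes in each fit. Over all genes the median log2 fold change of imiquimod over sham was -0.04, -0.01 and -0.02 with TMM at day 5, day 8 and in experiment 2, and -0.19, -0.16 and -0.21 on library totals. Depth limits genes under 3 counts, 0.0844 to 0.229 CPM. No paired analysis was possible because library numbers are unique within an experiment and the groups compared share none.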
